A study of Mus musculus with 20 samples.

Results

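Clustered H3K27ac domains are stretches of the WT genome in which at least 4 acetylated regions lie close together. The members were chosen by the positions of the H3K27ac peaks in the 2 WT libraries. Peaks of both libraries were merged, and 18395 merged regions that held a peak of each library were kept. Regions at most 12.5 kb apart were stitched, which gave 16032 units, and the 58 units with 4 or more regions are the domains described here. They held 261 regions, or 1.42% of all reproducible regions. H3K27ac coverage in WT therefore describes the choice and is given without a test, and so is any H3K27ac difference between WT and Tcf4 cKO, because a unit required to be acetylated in both WT libraries is more likely to look lower in other libraries.

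The cells were GFP+ cells of the Nkx2.1 lineage, sorted from the neocortex of mouse pups at postnatal day 7 or 8. Nkx2.1-Cre is active in ventral progenitors of the embryonic forebrain, so the sorted cells are a mixture of the neurons and glia that descend from them. WT pups carried Nkx2.1-Cre and a GFP reporter, and Tcf4 cKO pups carried Nkx2.1-Cre with both Tcf4 alleles floxed (Tcf4 f/f). The Cre driver is thus shared by both genotypes, and Tcf4 was deleted only in cells with a history of Cre. Cut&Tag, in which an antibody directs a transposase to the marked chromatin, was run for H3K27ac, H3K4me1 and H3K27me3 on 50000 cells per library, and ATAC-seq on the same number. Tcf4 was mapped with anti-Flag Cut&Tag on 200000 nuclei per library from the Tcf4-tag line, in which the endogenous protein carries an HA and Flag tag after Cre recombination. Every assay had 2 libraries per genotype. Whether these came from separate animals is not stated in the sources used here, so the spread between them may be technical. In these bulk samples a smaller share of a cell type and less mark per cell cannot be told apart.

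H3K27ac is placed on the nucleosomes that flank active promoters and enhancers. Runs of acetylated elements around genes of cell identity are known as super-enhancers, but neighbouring promoters of broadly expressed genes can form runs of the same size. H3K4me1 marks enhancers whether or not they are active, and H3K27me3 is the mark of Polycomb repression. Tcf4 is a bHLH transcription factor of the E protein family, which binds as a dimer to the E-box CANNTG.

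The windows of 101 bp around the highest anti-Flag summit give examples of the occupied DNA of these domains. The first set holds the 5 domains with the most reproducible Tcf4 regions, with ties at 4 regions settled by the share of the domain that Tcf4 covered. Sequences are from the plus strand of GRCm38 (mm10), with every E-box of the form CANNTG in capitals. Domains carry the names of the first and last protein-coding gene that starts in them, or of the nearest such gene.
Gm13283-Gm13288 (chr4:88799839-88799939): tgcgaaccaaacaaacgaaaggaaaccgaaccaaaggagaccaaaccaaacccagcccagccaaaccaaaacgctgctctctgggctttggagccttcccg
Pdia4 (chr6:47778134-47778234): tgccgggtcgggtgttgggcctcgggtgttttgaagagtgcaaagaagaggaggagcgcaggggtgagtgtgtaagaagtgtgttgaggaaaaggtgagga
Tmem115-Ifrd2 (chr9:107587809-107587909): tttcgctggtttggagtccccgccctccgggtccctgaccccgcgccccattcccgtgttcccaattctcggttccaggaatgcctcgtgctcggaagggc
Homez-Pabpn1 (chr14:54863922-54864022): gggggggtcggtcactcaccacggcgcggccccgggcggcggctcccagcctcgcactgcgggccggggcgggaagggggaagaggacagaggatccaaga
Eapp (chr12:54710596-54710696): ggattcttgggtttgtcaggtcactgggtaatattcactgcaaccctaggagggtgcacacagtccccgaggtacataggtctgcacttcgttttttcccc

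No CANNTG was found in any of these 5 windows. Gm13283-Gm13288 and the domains nearest to Pdia4 and Eapp are rich in repeated sequence, as given below, so these windows do not stand for all domains. The second set adds the domain that overlaps Tcf3, the gene of another E protein, and 3 domains chosen after their values were seen. Slc1a1 was the domain with the largest fall in H3K27ac coverage, Bhlhe41 was the window with the most E-boxes, and Eid1 held a CACGTG palindrome.
Mex3d-Uqcr11 (chr10:80399248-80399348): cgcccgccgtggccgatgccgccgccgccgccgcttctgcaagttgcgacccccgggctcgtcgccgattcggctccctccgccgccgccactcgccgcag
Slc1a1 (chr19:28827898-28827998): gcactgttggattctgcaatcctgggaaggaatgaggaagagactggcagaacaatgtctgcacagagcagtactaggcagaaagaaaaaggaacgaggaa
Eid1 (chr2:125684925-125685025): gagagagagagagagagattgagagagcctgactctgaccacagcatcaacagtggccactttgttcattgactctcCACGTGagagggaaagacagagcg
Bhlhe41 (chr6:145856164-145856264): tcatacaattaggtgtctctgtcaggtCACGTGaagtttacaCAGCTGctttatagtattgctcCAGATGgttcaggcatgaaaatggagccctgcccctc

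Of the 162 Tcf4 regions in domains, 28.4% (Wilson 95% interval, 22.0 to 35.8%) held CANNTG in the summit window, against 34.8% (34.0 to 35.6%) of all 14085 reproducible Tcf4 regions. CAGCTG was found in 9 of the 162 windows, or 5.56% (2.95 to 10.2%), against 10.3% (9.77 to 10.8%) of all Tcf4 regions. CAGGTG or its complement CACCTG was found in 4, or 2.47% (0.964 to 6.18%), against 7.55% (7.12 to 7.99%). The domain windows were richer in G and C, with a median of 63.4% against 59.4%. At the 42 summits in domains that lay over 1 kb from a coding start, CANNTG was found in 40.5% (27.04 to 55.5%), against 44.6% (43.4 to 45.8%) of 6609 such summits in all. Matches describe letters in these windows and not sites, and the intervals here and below cover counting error only.

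The 58 domains ran from 8915 to 54048 bp, with a median of 29252.5 bp, and added up to 1.66 Mb on 19 chromosomes. Of these, 38 domains held 4 regions, 16 held 5, 1 held 6, 1 held 7 and 2 held 8. At the threshold, the 38 units with 4 regions had a median length of 25802 bp and a mean WT H3K27ac coverage of 12.4% of their length, and the 228 units with 3 regions, just outside, had 17934.5 bp and 13.0%. In the units with 4 regions 71.1% of regions were within 1 kb of a coding start, against 65.8% in the units with 3. Here and below, a region is near a coding start when it is within 1 kb of the start of any protein-coding transcript, while genes are counted by the single start of the annotated gene.

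Most domains were runs of promoters in gene-dense DNA. In all, 206 protein-coding genes, or 0.939% of the 21938 annotated, had their start in a domain, which is 124 starts per Mb of domain against 8.05 per Mb over the chromosomes. A coding start lay in 52 of the 58 domains, and 36 domains held 3 or more. Of the 261 regions, 72.8% (67.1 to 77.8%) were within 1 kb of a coding start, against 60.3% of all reproducible regions. In 22 domains every region was that close to a start, and in 5 domains none was. Both measures are tied to the rule, since regions that lie together are found where genes lie together.

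The longest domain, Tmem115-Ifrd2 on chr9:107533929-107587976, held 8 regions and 11 coding starts. Its genes include the hyaluronidases Hyal1, Hyal2 and Hyal3, the tumour suppressor Rassf1 and Nprl2, a subunit of the complex that restrains mTORC1. H3K27ac peaks covered 10.3% and 10.01% of it in WT and 8.64% and 9.71% in Tcf4 cKO, and all 8 regions had a peak in both Tcf4 cKO libraries. Ppp6r1-Brsk1 (chr7:4640975-4691923) held 7 regions around Ppp6r1, a subunit of protein phosphatase 6, the chaperone regulator Hspbp1 and Brsk1, a kinase of neuronal polarity. Syvn1-Cdca5 (chr19:6046174-6084986) held 6 regions, each within 1 kb of a start, and 10 genes, among them the ER ubiquitin ligase Syvn1, Fau, which encodes a ribosomal protein, and Cdca5, which encodes the cohesin regulator sororin. H3K27ac covered 14.6% and 12.2% of it in WT and 13.3% and 10.7% in Tcf4 cKO, and no library had an H3K27me3 peak there.

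The other long promoter runs held 5 regions each. Trmt112-Gpr137 (chr19:6909441-6951790) contains the nuclear receptor gene Esrra, the peroxiredoxin gene Prdx5, the potassium channel gene Kcnk4 and the cell death gene Bad. Its H3K27ac coverage was 11.2% and 6.47% in WT and 8.91% and 4.56% in Tcf4 cKO, so the genotypes overlapped, and 2 of its 5 regions had a peak in neither Tcf4 cKO library. It also carried H3K27me3 over 13.7% and 17.2% of its length in WT and 14.98% and 13.5% in Tcf4 cKO. Zfp553-Sephs2, Hid1-Mrpl58 and Impdh2-P4htm were also among the 10 domains with the most regions. Impdh2 encodes a rate-limiting enzyme of guanine nucleotide synthesis.

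Histone genes stood out by number. Of 67 annotated genes of the Hist clusters, 22 (32.8%) had their start in a domain, against 0.939% of all coding genes. They lay in 3 domains on chromosome 13. The rule favours DNA where starts lie close together, so these are 3 stretches and not 22 separate finds. Hist1h4f-Hist1h4d (chr13:23544435-23586055) held 9 of them, Hist1h1c-Hist1h3a 8 and Hist1h2ah-Hist1h2bj 5. H3K27ac covered 11.9% and 6.30% of Hist1h4f-Hist1h4d in WT and 10.5% and 9.11% in Tcf4 cKO, which overlap. Histone genes are near-identical copies, so reads could be lost or shared among them.

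Small RNA genes lay at some of the regions that were far from any coding start. Of the 58 domains, 5 overlapped no coding gene. The domain nearest to Mreg (chr1:72225693-72255599) held 4 snRNA genes, and each of its 4 regions was within 1 kb of one. The domain nearest to Eapp (chr12:54709872-54739110) held 6 snRNA genes, with all 4 regions within 1 kb of one. snRNAs are the RNA cores of the spliceosome. The domain nearest to Pdia4 (chr6:47758407-47789053) held Rny1 and Rny3, which encode Y RNAs, and 1 of its 5 regions was within 1 kb of one. Over all domains 8 of 261 regions (3.07%) were within 1 kb of an snRNA gene, against 48 regions (0.265%) outside domains, and all 8 were in the domains nearest to Mreg and Eapp. The domains nearest to Chd2 and Calb2 held neither a coding gene nor a small RNA gene.

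In the Eapp domain, H3K27ac covered 9.62% and 10.6% in WT and 8.95% and 9.22% in Tcf4 cKO, and every region had a peak in both Tcf4 cKO libraries. In the Mreg domain it covered 8.93% and 6.93% in WT and 5.002% and 6.90% in Tcf4 cKO. As length shares, which divide by the covered length of the whole list, the genotypes overlapped in both domains, with log2 ratios of -0.01 at Eapp and -0.22 at Mreg.

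**Figure D1:**
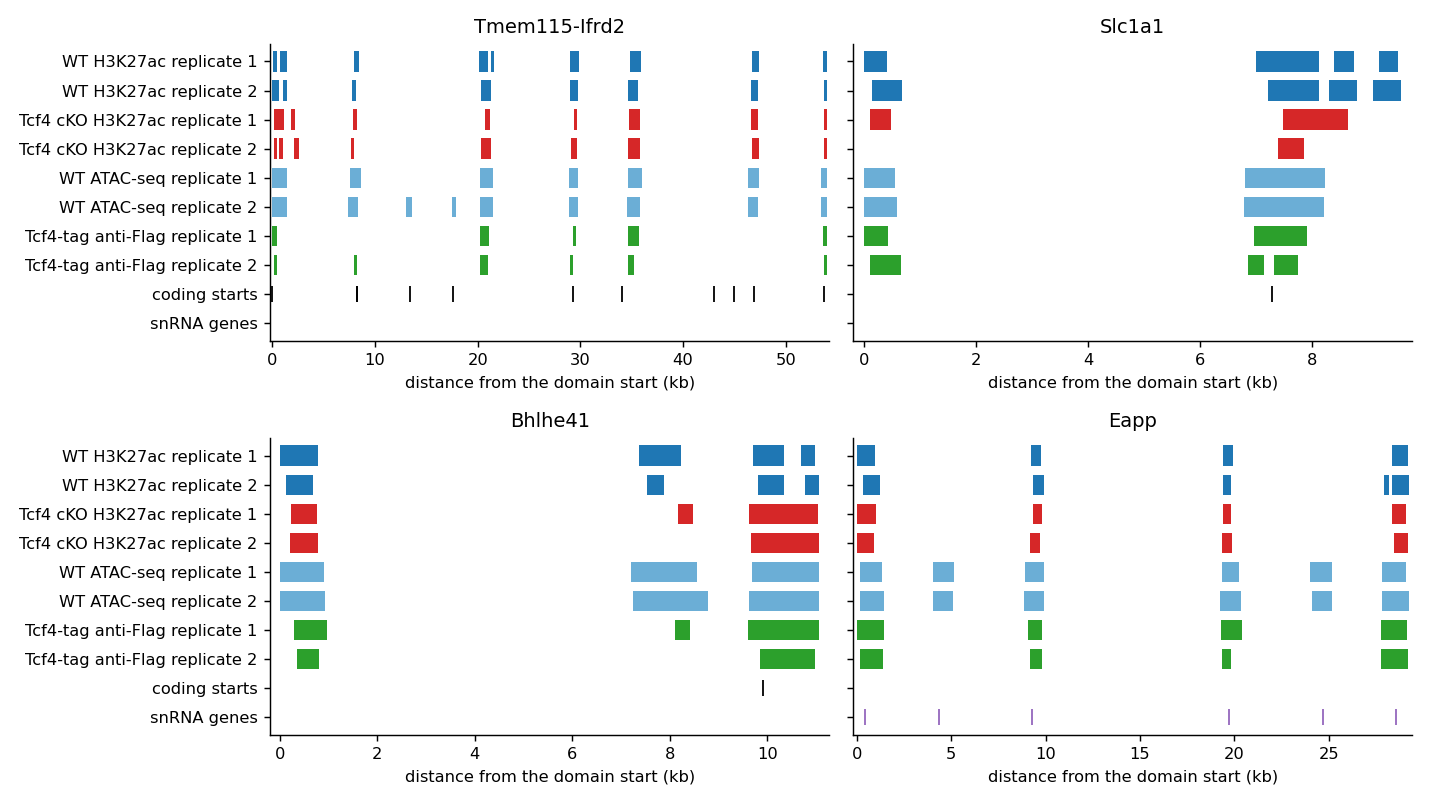
Peaks of each library in 4 domains, as distance from the domain start in kb, with H3K27ac in dark blue (WT) and red (Tcf4 cKO), WT ATAC-seq in light blue, anti-Flag in green, and ticks at coding starts and snRNA genes. Ticks mark 1 start per gene, so alternative transcript starts are not drawn; the peaks of Tmem115-Ifrd2 are spread over its genes, those of the domain nearest to Eapp at snRNA genes, and Slc1a1 has fewer peaks in Tcf4 cKO.

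Repeated sequence limits some of the domains. In 5 domains over 10% of the 50-mers occurred more than once within the domain, against a median of 0.280%. Gm10718-Gm10715 (chr9:3018348-3038171) had 77.3% repeated 50-mers and 95.9% soft-masked bases, and H3K27me3 peaks covered 100% of it in all 4 libraries. Gm13283-Gm13288 (chr4:88757098-88806165), a run of interferon-like genes around Ifnz, had 75.8%. It held 8 regions and 13 coding starts, with H3K27me3 over 14.2% and 14.2% in WT and 18.8% and 20.1% in Tcf4 cKO. The domains nearest to Eapp and Pdia4 had 67.5% and 47.5%, and Zfp747-Zfp764 had 10.9%. The authors kept uniquely mapped reads, and no IgG or input library was used here, so the part of mapping in these peaks was not tested.

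The domains were also set against lists of marker genes. Of the 128 genes in 10 lists, which cover cell types of the cortex, Sox factors, E proteins with their Id inhibitors and the Notch pathway, none had its start in a domain. The background is 0.939% of all genes, so a count of 0 is close to it and is no result about the lists. The body of Tcf3 overlapped the domain Mex3d-Uqcr11 (chr10:80386415-80413177), without a reproducible region within 1 kb of the start of Tcf3. H3K27ac covered 12.4% and 11.7% of that domain in WT and 12.9% and 5.40% in Tcf4 cKO, so that 1 Tcf4 cKO library lay above both WT libraries and the other below them. It held 2 Tcf4 regions, the stronger at Mbd3, the gene of a subunit of the NuRD complex.

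A reproducible WT region within 1 kb of the start was found at 13 of 20 astrocyte genes, 8 of 24 oligodendrocyte lineage genes, 6 of 20 interneuron genes and 2 of 6 ventral progenitor genes. It was found at 0 of 10 projection neuron genes, 1 of 10 microglia genes and 1 of 10 endothelial and mural genes, against 49.5% of all coding genes. Of the other lists, it was found at 6 of 12 Sox factors, 5 of 14 Notch pathway genes and 3 of 7 E protein and Id genes. The defining genes Pdgfra, Olig2, Sox10, Gad1 and Nkx2-1 had none. The astrocyte gene Fabp7, which encodes a brain lipid-binding protein, came closest to a domain, with a unit of 3 regions. H3K27ac covered 7.58% and 10.6% of that unit in WT and 8.91% and 7.45% in Tcf4 cKO. Of the oligodendrocyte lineage genes, 5 had units of 2 regions. The unit of Myrf, a transcription factor gene of myelination, was covered over 12.2% and 15.3% in WT and 3.47% and 0% in Tcf4 cKO, and that of Nkx2-2 over 15.4% and 10.7% in WT and 7.11% and 2.52% in Tcf4 cKO. The unit of Tcf7l2, which had no region within 1 kb of the gene start, was covered over 10.4% and 9.57% in WT and 6.33% and 3.41% in Tcf4 cKO. The unit of the myelin gene Mbp was covered over 18.2% and 15.4% in WT and 14.1% and 15.1% in Tcf4 cKO. In these 4 units both Tcf4 cKO values lay below both WT values, without scaling to the extent of the lists. The same held for units of 2 regions at genes of other lists, such as Aldoc, Id3 and Jag1, while at Nfib and Rbpj the genotypes overlapped. As length shares, 29.7% of all units with 2 regions were lower in both Tcf4 cKO libraries. That is another measure, and length shares of the units named here are not given. Unscaled counts over all units were not made, so the 4 units have no like background. All units were chosen on WT, so nothing particular to oligodendrocyte genes is read from these values. The unit of Vcan, which encodes a matrix proteoglycan, had 69.9% and 45.8% in WT and 73.9% and 66.3% in Tcf4 cKO, and the genotypes overlapped.

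Every domain held Tcf4. A reproducible Tcf4 region, merged from peaks of both anti-Flag libraries, was found in 58 of 58 domains (93.8 to 100%), against 60.3% of all stitched units. This share rose with the number of regions in a unit, from 57.2% (56.4 to 57.99%) of units with 1 region to 80.3% (78.4 to 82.2%) with 2 and 94.3% (90.5 to 96.6%) with 3. The units also became longer, with medians of 896, 8933.5, 17934.5 and 29252.5 bp, and a longer unit has more room for a Tcf4 region. Counted per region, the domains were close to the rest. Tcf4 was found at 159 of the 261 regions, 60.9% (54.9 to 66.6%), against 57.1% of all reproducible regions. Near coding starts it was found at 64.2% (57.2 to 70.7%) of regions in domains and 64.3% (63.4 to 65.2%) outside, and farther from starts at 52.1% (40.7 to 63.3%) and 46.1% (45.0 to 47.2%). Near starts the shares inside and outside the domains differed by less than the counting interval.

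**Figure D2:**
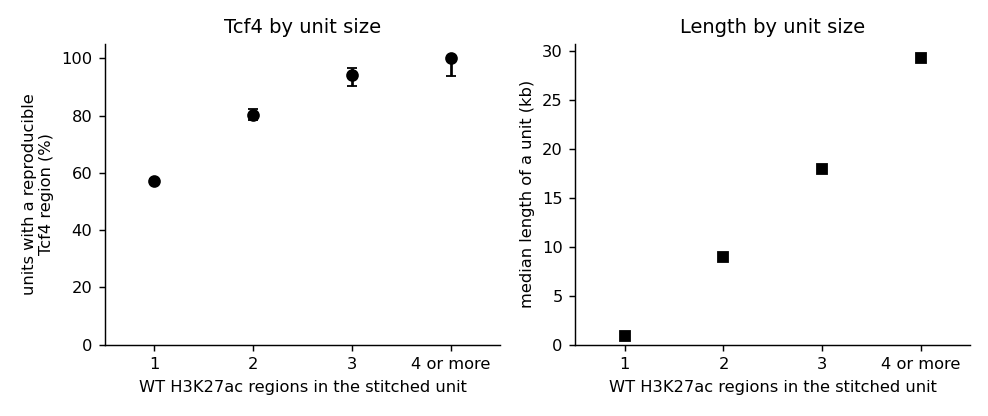
Left, share of stitched WT H3K27ac units with a reproducible Tcf4 region, in percent with Wilson 95% intervals, by the number of regions in the unit. Right, median length of these units in kb; the share rose from 57.2% to 100% while the median length rose from 896 to 29252.5 bp.

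The 2 anti-Flag libraries differed in extent. Their peaks covered 10.5% and 5.98% of the summed domain length, and 18.1 and 9.24 Mb of the genome. With replicate 1 alone 84.7% of the domain regions held a Tcf4 peak, and with replicate 2 alone 62.5%. The domains held 162 reproducible Tcf4 regions, which covered between 1.83% and 19.4% of a domain, with a median of 8.27%. In 12 domains Tcf4 was found at every acetylated region and in 13 domains there was a single Tcf4 region.

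The most Tcf4 regions, 9, were found in Gm13283-Gm13288, followed by the domain nearest to Pdia4 with 7 and Tmem115-Ifrd2 with 5. The first and second of these are among the domains of repeated sequence. Homez-Pabpn1 (chr14:54863630-54895059), with Pabpn1, the nuclear poly(A)-binding protein gene, and Bcl2l2, a gene of a cell survival factor, held 4 Tcf4 regions over 15.4% of its length, and each of its 4 regions was found again in both Tcf4 cKO lists. The highest coverage, 19.4%, was at Bhlhe41 (chr6:145855637-145866711), the gene of a bHLH repressor of the circadian clock. Its H3K27ac coverage was 23.1% and 15.7% in WT and 20.6% and 17.8% in Tcf4 cKO, so the Tcf4 cKO values lay between the WT values.

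H3K27ac peaks covered 12.6% and 10.9% of the summed domain length in the WT libraries and 11.3% and 9.10% in the Tcf4 cKO libraries. The means were 11.7 ± 1.20% and 10.2 ± 1.53% (SD, n = 2), and the values of the genotypes overlapped. The lists differed in extent in the same way, with 19.3 and 15.8 Mb covered in WT and 17.7 and 14.1 Mb in Tcf4 cKO. Domains took 1.08% and 1.14% of the covered length in WT and 1.05% and 1.07% in Tcf4 cKO. The acetylated regions of the domains were covered over 71.8% and 60.0035% of their length in Tcf4 cKO, and all other reproducible WT regions over 69.6% and 60.2%.

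Most acetylated regions of the domains still had a peak in Tcf4 cKO. Of the 261 regions, 88.1% (83.6 to 91.5%) had a peak in Tcf4 cKO replicate 1 and 82.0% (76.9 to 86.2%) in replicate 2. A peak in both was found at 200 regions, 76.6%, against 74.8% of all reproducible WT regions, and a peak in neither at 17, 6.51%, against 9.48%. In 19 domains every region was found again in both Tcf4 cKO lists, and 14 domains held at least 1 region with a peak in neither. Near coding starts 82.1% (76.0 to 86.9%) of domain regions had a peak in both, against 87.5% (86.9 to 88.2%) of such regions outside, and farther away 62.0% (50.3 to 72.4%) against 55.6% (54.5 to 56.8%). With Tcf4, 83.0% (76.4 to 88.1%) of domain regions had a peak in both, and without Tcf4 66.7% (57.1 to 75.1%). Outside the domains these shares were 85.3% and 60.9%, and in both sets the share was lower without Tcf4. Regions are not replicates, and all of these shares come from the same 2 Tcf4 cKO libraries. Regions near starts held Tcf4 more often and were also found again more often. What part distance from a start has in the difference by Tcf4 was not tested.

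**Figure D3:**
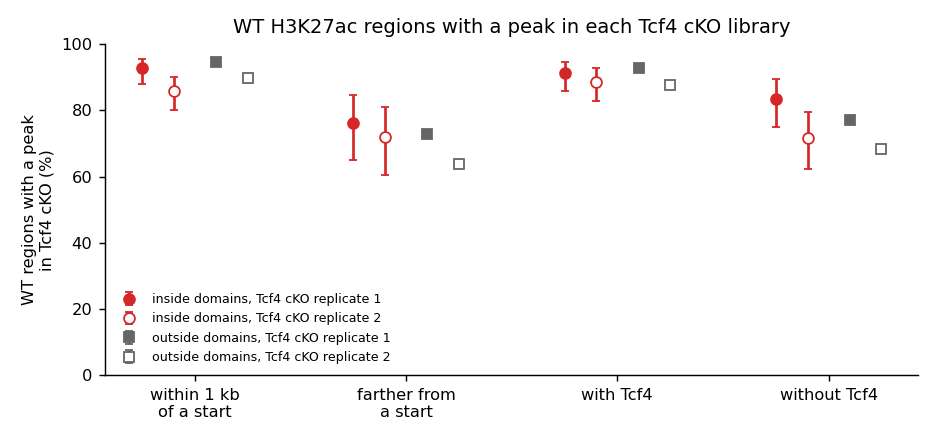
Share of reproducible WT H3K27ac regions with a peak in each Tcf4 cKO library, in percent with Wilson 95% intervals, for regions inside (red circles) and outside (grey squares) domains, by distance from a coding start and by presence of a Tcf4 region. Filled symbols are replicate 1 and open symbols replicate 2; regions near a start and regions with Tcf4 were found again more often in both sets.

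To compare libraries of different extent, the covered length in each domain was divided by the covered length of the whole list, which gives a length share. This share was lower in both Tcf4 cKO libraries than in both WT libraries in 11 of 58 domains (18.97%), against 29% of all stitched units. It was higher in both in 4 (6.90%), against 8.34%. All of these units were chosen on WT, so nothing is read from either count. Without scaling, 19 domains were lower and 1 was higher. The unscaled counts over all units were not made, and the Tcf4 cKO lists cover less of the genome on average, so these counts have no background.

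The largest fall in length share was at Slc1a1 (chr19:28827765-28837359), which encodes a glutamate and cysteine transporter of neurons. H3K27ac peaks covered 23.1% and 25.6% of this domain in WT and 16.1% and 4.83% in Tcf4 cKO. Of its 4 regions, 1 was found again in both Tcf4 cKO lists and 1, chr19:28836856-28837359, in neither. That region and its neighbour, chr19:28836071-28836561, had no ATAC-seq, H3K4me1 or reproducible Tcf4 peak. Both lay beside the region at the gene start, in a unit that just meets the minimum of 4 regions. The log2 ratio of the mean length shares was -1.17. Its ATAC-seq coverage was 20.5% and 21.1% in WT and 18.3% and 17.5% in Tcf4 cKO, a smaller difference in the same direction before scaling. As ATAC-seq length shares, both Tcf4 cKO values lay within the range of WT.

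At Kif7 (chr7:79710182-79730174), the gene of a kinesin of Hedgehog signalling, H3K27ac covered 15.1% and 13.5% in WT and 8.05% and 6.40% in Tcf4 cKO, with a log2 ratio of -0.85. At Ppfia3 (chr7:45361430-45370574), which encodes a liprin of the presynaptic active zone, it covered 21.7% and 16.3% in WT and 13.4% and 6.68% in Tcf4 cKO, with a log2 ratio of -0.81. In both domains every Tcf4 cKO value lay below both WT values. Of the 4 regions at Ppfia3, 1 was found again in both Tcf4 cKO lists and 2 in neither. Eef1akmt4-Ece2 (chr16:20610372-20630550), with Alg3 of protein glycosylation and the CaMKII inhibitor gene Camk2n2, had 15.8% and 19.03% in WT and 14.2% and 7.72% in Tcf4 cKO. Hist1h2ah-Hist1h2bj had 20.5% and 15.9% in WT and 11.7% and 13.5% in Tcf4 cKO. The 6 other domains with a lower share had log2 ratios between -0.34 and -0.14.

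Only 4 domains had a higher share in both Tcf4 cKO libraries, and Gm10718-Gm10715, the domain of soft-masked sequence, led them with 9.87% and 10.01% in WT and 14.02% and 12.7% in Tcf4 cKO. The domain 8992 bp from the start of Calb2, the calretinin gene of interneurons, had 11.8% and 8.33% in WT and 12.6% and 10.2% in Tcf4 cKO. Slc2a3-Foxj2, with the neuronal glucose transporter gene Slc2a3, had 16.1% and 12.6% against 16.9% and 12.8%. Zfp747-Zfp764, a run of zinc finger genes, had 11.4% and 9.76% against 11.1% and 9.46%. In the last 3 the covered percentages of the genotypes overlapped, and only the scaled shares did not.

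**Figure D4:**
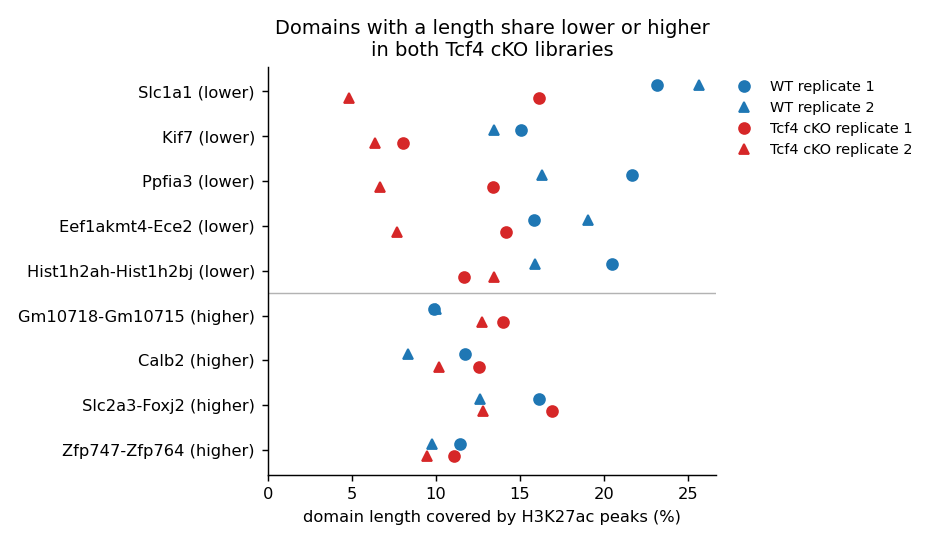
Share of each domain's length covered by H3K27ac peaks in percent, for the 5 domains with the largest fall and the 4 domains with a rise in length share, with WT in blue, Tcf4 cKO in red, circles for replicate 1 and triangles for replicate 2. At Slc1a1 the values were 23.1% and 25.6% in WT and 16.1% and 4.83% in Tcf4 cKO.

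The same rule applied to the Tcf4 cKO lists shows how far the choice of genotype sets these directions, and was added after seeing the data. It gave 16892 reproducible regions and 46 domains with 213 regions. Of the WT domains, 28 overlapped a Tcf4 cKO domain, which is 48.3% of the WT domains and 60.9% of the Tcf4 cKO domains. In the Tcf4 cKO domains H3K27ac covered 11.6% and 9.95% of the length in WT and 12.2% and 10.8% in Tcf4 cKO. The length share was then higher in both Tcf4 cKO libraries in 22 of the 46 domains and lower in 1, against 42.9% and 1.26% of all Tcf4 cKO units, so these counts are close to their own background. A domain of 4 regions that overlapped the body of Nkx2-1, the ventral transcription factor gene of the lineage, was found in the Tcf4 cKO lists and not in WT, and is named after its values were seen. A WT unit of 3 regions overlapped this domain without reaching the gene. The domain was covered over 8.15% and 7.25% in WT and 11.5% and 8.73% in Tcf4 cKO.

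The other marks did not enter the choice of the domains, and their coverage was tested with exact two-sided permutation tests over libraries. With 2 libraries against 2 the smallest p possible is 0.33, so none can pass 0.05. ATAC-seq peaks covered 16.1% and 17.4% of the domain length in WT and 16.1% and 15.7% in Tcf4 cKO, and the lower WT value was at the level of the higher Tcf4 cKO value. The means were 16.8 ± 0.881% and 15.9 ± 0.262% (SD, n = 2; exact permutation p = 0.33). The length share of ATAC-seq was lower in both Tcf4 cKO libraries in 2 domains (3.45%), against 5.63% of all units, and higher in both in 4 (6.90%), against 8.45%. In the authors' table of ATAC-seq consensus regions, 227 regions lay in 53 domains, with a median of their mean log2 reads of 8.34 in WT and 8.18 in Tcf4 cKO, against 7.07 and 7.003 over all 32120 regions. These are pooled values without an error. The consensus regions in domains had higher read levels than the median region in both genotypes, but the whole set was not limited to acetylated regions. Against other acetylated regions the difference was small. In WT, ATAC-seq peaks covered 85.0% and 89.9% of the length of domain regions and 83.9% and 88.8% of that of the other reproducible regions.

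H3K4me1 peaks were found at fewer of the acetylated regions inside domains than outside. A peak was found at 45.2% (39.3 to 51.3%) and 63.6% (57.6 to 69.2%) of domain regions in the WT libraries, against 58.1% (57.4 to 58.8%) and 71.5% (70.8 to 72.1%) of the other regions. The shares inside were also lower at either distance from a start. Those sets are smaller and are given without intervals, so whether these differences exceed counting error is not shown. Regions near starts held H3K4me1 less often, and domains had more such regions, as given above. What part this has in the lower share was not tested. Near starts the shares in WT were 38.4% and 59.5% in domains and 45.1% and 64.2% outside, and farther away 63.4% and 74.6% against 77.8% and 82.3%. H3K4me1 covered 4.95% and 7.74% of the domain length in WT and 9.41% and 9.12% in Tcf4 cKO. The means were 6.34 ± 1.98% and 9.27 ± 0.199% (SD, n = 2; exact permutation p = 0.33), and the groups did not overlap. The whole lists moved in the same way, with 27.2 and 32.7 Mb in WT and 42.6 and 37.9 Mb in Tcf4 cKO. As a share of the list, 15 domains were higher in both Tcf4 cKO libraries (25.9%), against 14.1% of all units, and 7 were lower (12.1%), against 24.1%. What part depth has in this was not tested.

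H3K27me3 covered 3.89% and 4.75% of the domain length in WT and 4.43% and 4.32% in Tcf4 cKO. The means were 4.32 ± 0.609% and 4.38 ± 0.0832% (SD, n = 2; exact permutation p = 1.0), with the Tcf4 cKO values inside the range of WT. As a share of the list, 15 domains were lower in both Tcf4 cKO libraries (25.9%), against 5.93% of all units, and 9 were higher (15.5%), against 4.15%. Of the units with 2 and 3 regions, 10.6% and 14.9% were lower and 6.81% and 6.14% higher. Unit length rose along with these shares, and its part in them was not tested. Without the 5 domains of repeated sequence, the means were 2.496% in WT and 2.42% in Tcf4 cKO.

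**Figure D5:**
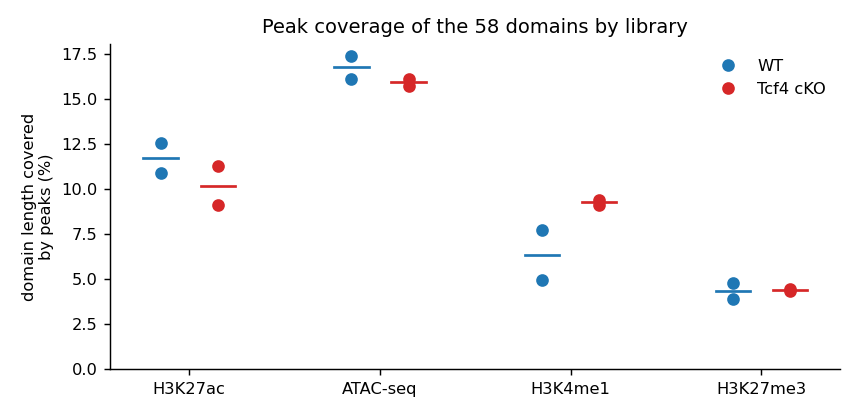
Share of the summed length of the 58 domains covered by peaks in percent, by assay, with 1 point per library, WT in blue and Tcf4 cKO in red, and a bar at each mean. H3K4me1 was at 4.95% and 7.74% in WT and 9.41% and 9.12% in Tcf4 cKO, and the H3K27me3 values of Tcf4 cKO lay within those of WT.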

How the data were processed

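ATAC-seq and Cut&Tag peak lists of 18 libraries, 2 per genotype and assay, were used. Per the submitters' processing notes and the study's methods, the authors trimmed reads with Trim Galore, aligned them to mm10 with Bowtie2, removed duplicates with SAMtools and called peaks with MACS2 in each library on its own. For each peak the deposited lists hold the fold enrichment, a ratio to local background, with its significance as −log10 of the p-value and of the q-value. Reads per library are not in these lists, so depth is unknown and only the number and length of peaks show it (15082 to 72788 peaks per list for ATAC-seq and histone marks). The authors' table of ATAC-seq consensus regions holds a mean log2 of normalized reads per genotype. Its columns of fold changes and p-values were not used, nor was a table of footprint scores, and single-cell RNA-seq was not analysed here.

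From the files, peaks of the 2 libraries of an assay were merged, and merged regions with a peak of each were called reproducible. WT H3K27ac regions at most 12.5 kb apart were stitched, units of 4 or more regions were kept, and mitochondrial sequence was left out. Covered length was counted once per base. A length share is the covered length in a unit over that of the whole list. Genes, coding starts and sequences came from the GRCm38 annotation and genome. Regions were measured against all protein-coding transcript starts, and genes by their own single start. Intervals are Wilson 95% intervals. Tests were exact two-sided permutations of libraries. Python 3.11.15, numpy 2.4.6, pandas 2.3.3, pysam 0.24.0, statsmodels 0.14.6 and matplotlib 3.10.9 were used, and the interval code was tested on simulated peaks with known overlaps.

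Named are the 10 domains with most regions, the 5 longest, the 5 with most Tcf4 regions, up to 5 per direction with the largest log2 ratio of H3K27ac length share, and those that overlap a listed gene. A domain that this rule names is not reported here. The remaining named domains were chosen after their values were seen. The members and lists were chosen with earlier results of these data known. Alternatives were other stitching distances, region minimums, q-value limits and overlaps, leaving out regions near starts, no scaling, leaving out each library, and a replicate block. Whether equal replicate numbers mark a shared animal or day is not given in the sources used here.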

Additional observations from a re-analysis of the deposited data

How the results depend on the processing

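The number of domains followed the settings of the rule closely. It was 1 with stitching at 5 kb, 215 at 20 kb, 286 with at least 3 regions, 20 with at least 5, 8 at a −log10 q of 5 or more and 5 without regions near a start. In the same order these held 0.0217%, 5.57%, 5.14%, 0.593%, 0.326% and 0.287% of the regions, and 1, 854, 639, 104, 28 and 0 coding starts. A Tcf4 region was found in 1, 213, 273, 20, 7 and 5 of them. Tcf4 was at 25% of regions at 5 kb and 53.1% at the stricter q-value.

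Of these 1, 215, 286, 20, 8 and 5 domains, 1, 45, 81, 3, 2 and 0 had a lower H3K27ac share in Tcf4 cKO. A higher share was found in 0, 29, 29, 0, 1 and 1. With other region minimums the share of all stitched units stays at 29% lower and 8.34% higher. For the other settings it was not computed, and nothing is read from these counts. Without scaling the counts were 19 and 1, without domains of repeated sequence 2 were higher, and with domains built from the Tcf4 cKO lists 1 was lower and 22 were higher. The H3K27ac difference in covered percent, Tcf4 cKO minus WT, was -8.95 at 5 kb and turned to 0.686 with domains built from the Tcf4 cKO lists. Leaving out repeated sequence and building domains from the Tcf4 cKO lists were chosen after seeing the data. The H3K27me3 difference changed sign at 5 kb (-3.70), at 20 kb (-0.0951), with at least 3 regions (-0.381) and without repeated sequence (-0.0809). The cause was not tested.

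Leaving out a WT H3K27ac library, which leaves domains built on 1 library, gave 136 domains (without replicate 1) or 260 (without replicate 2), 2.49% to 4.21% of regions, 357 to 555 coding starts and 130 to 242 domains with Tcf4. With an H3K27ac library left out, a call compares 1 library with 2 and is easier to meet. Without Tcf4 cKO replicate 1, 20 of 58 domains were lower and 23 higher, and without Tcf4 cKO replicate 2, 25 and 6. Without WT replicate 1, 89 of 136 domains were lower and 12 higher, and without WT replicate 2, 150 of 260 and 36. Counts over all stitched units were not made for these calls, so they have no background. Over all libraries left out in turn, domains with Tcf4 ranged from 58 to 242 and regions with Tcf4 from 45.7% to 84.7%. The H3K27ac difference ranged from -3.62 to -0.460, and the H3K27me3 difference from -0.371 to 0.490. The ATAC-seq and H3K4me1 differences kept their sign, from -1.46 to -0.218 and from 1.52 to 4.32.

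With the replicate block, in which equal replicate numbers were treated as pairs, the differences were -0.841 for ATAC-seq (exact sign-flip p = 0.5), 2.92 for H3K4me1 (exact p = 0.5) and 0.0597 for H3K27me3 (exact p = 1.0). The smallest p that 2 pairs allow is 0.5, so the block can pass no threshold.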
